A study of Mus musculus with 5 samples.

Results

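Thyroid hormone action in the brain was followed through the transcripts of 7 genes for transport, activation, binding and response. They are the receptor genes Thra and Thrb, the activating deiodinase Dio2, the transporter Slco1c1, the cytosolic hormone-binding protein gene Crym and the hormone-responsive transcriptional regulator genes Hr and Klf9. They were taken by name from the count table, and all 7 were found among 47729 genes. The RNA was taken from the right hemisphere of the brain of male mice of the inbred strain C57BL/6, all 5 months old, in 5 samples. No sample carried a mutation or received a treatment according to the labels, so genes were compared within each brain, and brains among themselves. Whether every sample is its own mouse is not stated in the labels. The samples are named animals 1 to 5 in accession order, which pairs nothing, and all p-values reflect the spread among them, which could be technical.

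Thyroid hormone reaches the brain mainly as thyroxine, which is carried across the blood-brain barrier by membrane transporters such as the product of Slco1c1. In rodents, astrocytes and the tanycytes of the hypothalamus convert it with the enzyme encoded by Dio2 to triiodothyronine, the form that binds the nuclear receptors with high affinity. The receptors sit on DNA with a retinoid X receptor as partner, recruit corepressors when empty and coactivators when occupied, and so set the rate at which target genes such as Hr and Klf9 are transcribed.

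Library depth ran from 13184234 to 15570064 counts. Neuron, astrocyte, endothelial, oligodendrocyte, microglial and choroid plexus markers, 33 genes in 6 lists, were all detected in every library. Of 4 thyroid genes listed, 2 were detected in every library, among them Slc5a5 with 153 to 182 counts, while Tg had at most 4. Of 6 anterior pituitary genes, 3 were detected in every library, and Cga had no counts. The 3 were Tshb with 20 to 30 counts in a library, and Gh and Pomc with 26 and 212 over the 5 libraries. Levels are in RPKM, counts scaled to gene length and library total, recomputed from the deposited counts, and means carry ± the SD (n = 5).

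The 7 genes spanned a wide range of levels, and their order was nearly the same in every brain. Thra stood highest at 112 ± 2.63 RPKM, followed by Klf9 at 58.8 ± 6.79, Crym at 27.4 ± 2.16, Dio2 at 13.9 ± 2.29, Slco1c1 at 12.3 ± 0.674, Thrb at 10.7 ± 0.558 and Hr at 6.63 ± 0.552. In bulk tissue, a level that is low because few cells express a gene cannot be told apart from a low level in many cells. Each ratio of genes was taken within the animal as log2 of RPKM plus 0.1, with an exact sign-flip test (two-sided), for all 21 pairs of the genes and 2 pairs of Dio2 with the other deiodinase genes. Of the 21 pairs, 20 had 1 order in all 5 animals, each with the smallest exact p that 32 sign patterns allow, 0.062 (0.0653 after Benjamini-Hochberg adjustment over the 23 pairs), so no pair can pass 0.05. Dio2 and Slco1c1 were the pair without a fixed order, with Dio2 higher in 3 of 5 animals (log2 ratio 0.15 ± 0.21, exact p = 0.250, adjusted 0.250).

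**Figure D1:**
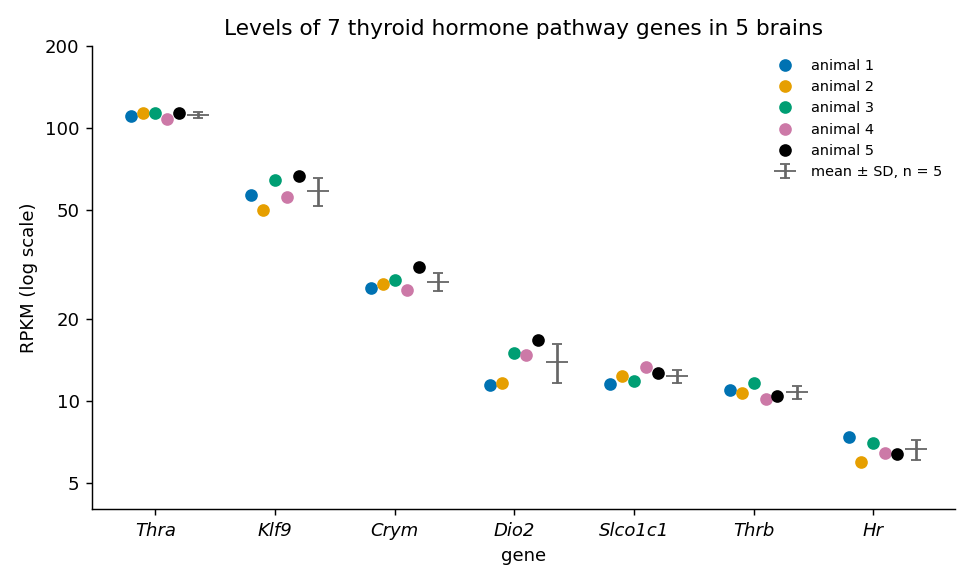
Level of each gene in each of the 5 brains, in RPKM on a log axis; points are animals and the grey bar is the mean ± SD (n = 5). Thra lies between 108 and 114 RPKM and Hr between 5.95 and 7.34, and the points of Dio2 and Slco1c1 overlap.

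Thra, the more abundant receptor gene, was also the steadiest member. Thra (ENSMUSG00000058756, GRCm38 chromosome 11, 98740638 to 98769006, plus strand) had 111, 114, 113, 108 and 114 RPKM in animals 1 to 5. Animal 4 was slightly below the other 4, and the highest value exceeded the lowest by 1.06-fold. Its coefficient of variation was 2.35%, against 1.17% from counting error alone at a mean of 7348 counts. Gene counts do not separate the splice forms of Thra, of which the alpha-1 product binds the hormone and the alpha-2 product does not. The last exons of Thra also overlap those of the clock gene Nr1d1 on the opposite strand over 263 bases, 5.70% of the exon length of Thra. The strand setting of the counting is not given in the sources used here, so reads from that stretch are uncertain. Nr1d1 itself stood at 43.4 ± 2.72 RPKM.

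Thrb encodes the second receptor and was present at a fraction of the level of Thra. Thrb (ENSMUSG00000021779, chromosome 14, 17660261 to 18038090, plus strand) had 10.9, 10.6, 11.6, 10.2 and 10.4 RPKM in animals 1 to 5. Animal 3 was highest and the other 4 lay close together. Thra exceeded Thrb by 10.3-fold (log2 ratio 3.37 ± 0.065, higher in 5 of 5 animals), and this ratio had the smallest SD of the 23 pairs. Per unit of length, Thra made up 91.2% ± 0.367 of the transcripts of the receptor pair, with 91.1, 91.5, 90.7, 91.4 and 91.6% in animals 1 to 5. RefSeq (GRCm38.p6) lists a pair of transcription starts for Thrb, at 17660960 and 17981644, and gene counts sum over them, so receptor forms that begin at different starts are not separated. The length recovered for Thrb, 6555 bases, differs by -11.5% from the union of its annotated exons, 7403 bases, with which its mean would be 9.50 RPKM.

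Slco1c1 (ENSMUSG00000030235, chromosome 6, 141524368 to 141570177, plus strand) encodes an organic anion transporter with a high affinity for thyroxine that is known from brain endothelium and choroid plexus. It had 11.5, 12.4, 11.9, 13.3 and 12.6 RPKM in animals 1 to 5. The values lay close together, with animal 4 highest and a range of 1.14-fold between brains on TMM-scaled CPM. Slco1c1 exceeded Thrb in 5 of 5 animals (log2 ratio 0.20 ± 0.14), an order that turns to -0.14 without a length adjustment.

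Dio2 (ENSMUSG00000007682, chromosome 12, 90724552 to 90738438, minus strand) encodes the selenoenzyme that activates thyroxine by removing an iodine from its outer ring. It had 11.4, 11.6, 14.9, 14.7 and 16.7 RPKM in animals 1 to 5. Animals 1 and 2 were low and nearly equal, animals 3 and 4 were higher, and animal 5 was highest. Dio3, the gene of the enzyme that inactivates both hormones, stood at 1.35 ± 0.207 RPKM, from only 31 to 50 counts in a library. Dio2 exceeded Dio3 by 9.63-fold (log2 ratio 3.27 ± 0.33, higher in 5 of 5 animals, exact p = 0.062, adjusted 0.0653), and by a log2 ratio of 2.65 with 1 RPKM added in place of 0.1. Dio1, the deiodinase of liver and kidney, had 0 counts in animals 1, 2 and 3, where 3 counts would have been 0.103 to 0.115 RPKM, and 1 count each in animals 4 and 5, so no fold is given for it. An annotated RNA on the opposite strand, Gm26512, overlaps 100 exon bases of Dio2 and stood at 0.211 ± 0.0862 RPKM.

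Crym (ENSMUSG00000030905, chromosome 7, 120186380 to 120202111, minus strand) encodes mu-crystallin, which holds triiodothyronine in the cytosol. It had 25.9, 26.8, 27.6, 25.5 and 30.9 RPKM in animals 1 to 5. Animal 5 stood above the other 4, and the range between brains fell to 1.09-fold without it, against 1.21-fold with it. Crym exceeded Dio2 by 1.98-fold (log2 ratio 0.99 ± 0.19) and Thrb by 2.53-fold (1.34 ± 0.13), each in 5 of 5 animals.

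Klf9 and Hr are direct targets of the receptors in rodent brain, and their products act on other genes, Klf9 as a zinc finger transcription factor and Hr as a corepressor. Klf9 (ENSMUSG00000033863, chromosome 19, 23141226 to 23168134, plus strand) had 56.7, 49.95, 64.4, 56.0 and 66.7 RPKM in animals 1 to 5. Animals 3 and 5 were high, animal 2 was lowest, and animals 1 and 4 lay between. Hr (ENSMUSG00000022096, chromosome 14, 70552212 to 70573548, plus strand) had 7.34, 5.95, 7.02, 6.44 and 6.38 RPKM. Animal 2 was lowest here too, but animal 1, not animal 5, was highest. Klf9 exceeded Hr by 8.73-fold (log2 ratio 3.13 ± 0.16, higher in 5 of 5 animals). The length recovered for Klf9, 3263 bases, differs by -32.2% from the union of its annotated exons, 4815 bases, with which its mean would be 39.8 RPKM, still above that of Crym.

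**Figure D2:**
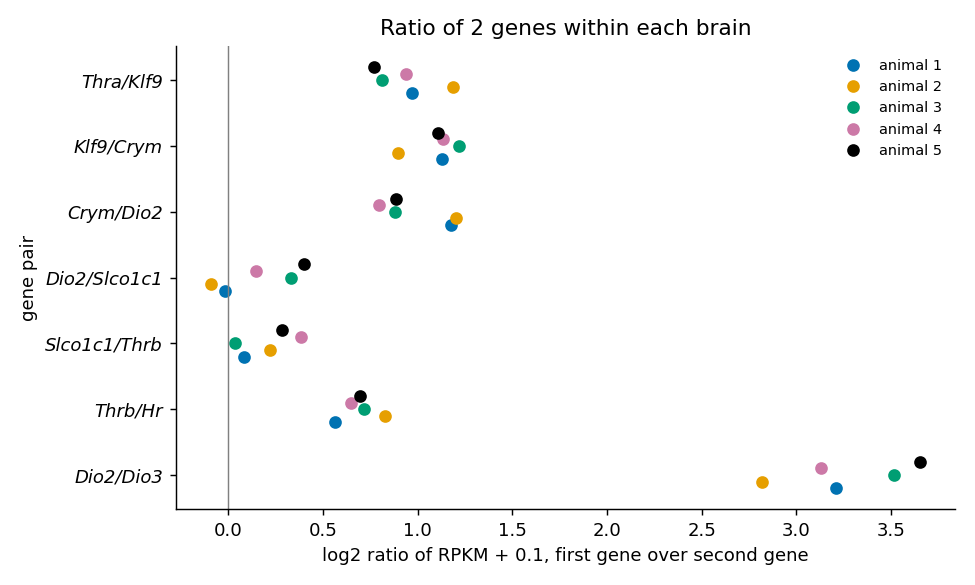
Log2 ratio of 2 genes within each brain, first gene over second, for neighbours in the order of levels and for Dio2 with Dio3; points are animals and the vertical line is equality. Dio2 over Slco1c1 lies on both sides of the line and Slco1c1 over Thrb lies between 0.032 and 0.38.

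Dio2 varied between the brains more than genes of like abundance, and none of the other 6 genes passed that test. Klf9, Crym and Hr also lay above the spread of such genes, Slco1c1 and Thrb close to it, and Thra below it. For each of 14770 genes tested, the spread of counts around the mean was divided by the value that genes of the same abundance have, with edgeR's quasi-likelihood fit, and genes with an adjusted p under 0.05 were called more variable. Of the 7 genes, 1 was called, Dio2, against 0.305% of all genes tested. None of the 7 was called less variable by edgeR, nor was any other gene (0% of the genes tested, 739 at an unadjusted p under 0.05, and 25 called with no low-count filter). At an unadjusted p under 0.05, 2 of the 7, Dio2 and Klf9, were more variable, against 5.43% of all genes tested. The median log2 ratio to the trend was 1.37 over the members and -0.19 over all genes tested, and the median range between brains was 1.21-fold and 1.19-fold. The members were chosen with earlier results of these data known, so these counts and medians are not independent results.

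**Figure D3:**
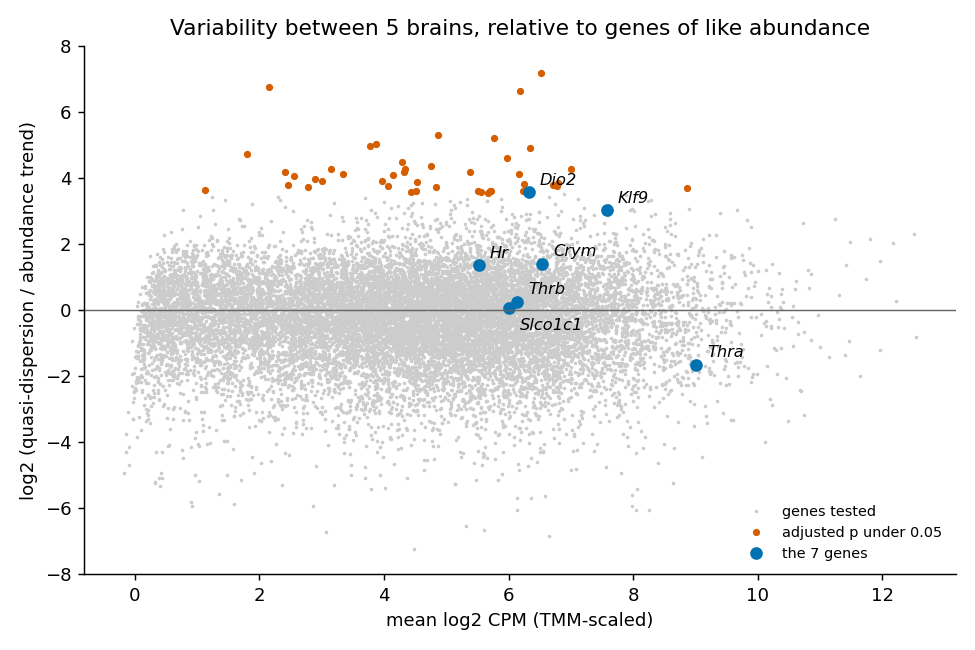
Spread between the 5 brains against abundance for 14770 genes; the vertical axis is the log2 ratio of a gene's quasi-dispersion to the abundance trend, and the horizontal axis the mean log2 CPM. Orange points are the 45 genes with an adjusted p under 0.05, and blue points are the 7 genes, among which Dio2 lies at 3.57 and Thra at -1.65.

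On TMM-scaled CPM, Dio2 had 67.0, 67.0, 87.7, 85.6 and 97.4 in animals 1 to 5. The range was 1.45-fold, or 1.31-fold without animal 5. Its coefficient of variation was 16.5% in RPKM, against 2.95% from counting error. Its quasi-dispersion was 11.9 times the trend (edgeR, quasi-likelihood, adjusted p = 0.0466), which placed it at rank 44 of the 14770 genes. The call is close to the threshold. Leaving out animal 1, 2, 3 or 5 gave adjusted p = 0.143, 0.153, 0.0703 and 0.170, and leaving out animal 4 gave 0.0168. With a prior that is not robust it was 0.130, with limma on recomputed RPKM 0.703 and with limma on the deposited RPKM 0.933. The deposited RPKM carries a scaling error, described below with the processing of the data.

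Klf9 had a quasi-dispersion of 8.14 times the trend and a range of 1.35-fold, at rank 87 (edgeR, unadjusted p = 0.00101, adjusted p = 0.170). Without animal 2, the lowest, its range was 1.19-fold and the log2 ratio to the trend 2.04, against 3.03 with all animals, and with limma on the deposited RPKM that ratio was 0.37 (adjusted p = 0.933). Hr and Crym lay at 2.58 and 2.65 times the trend (adjusted p = 0.956 each), and without animal 5 Crym lay below it (log2 ratio -0.68). Slco1c1 and Thrb lay at 1.05 and 1.19 times the trend (0.995 each), close to what genes of their abundance show. Thra lay below it, at 0.318 times the trend, and was not called less variable (edgeR, adjusted p = 0.987). Its log2 ratio of -1.65 moved to -4.24 without animal 4 and to -0.23 with limma on the deposited RPKM.

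**Figure D4:**
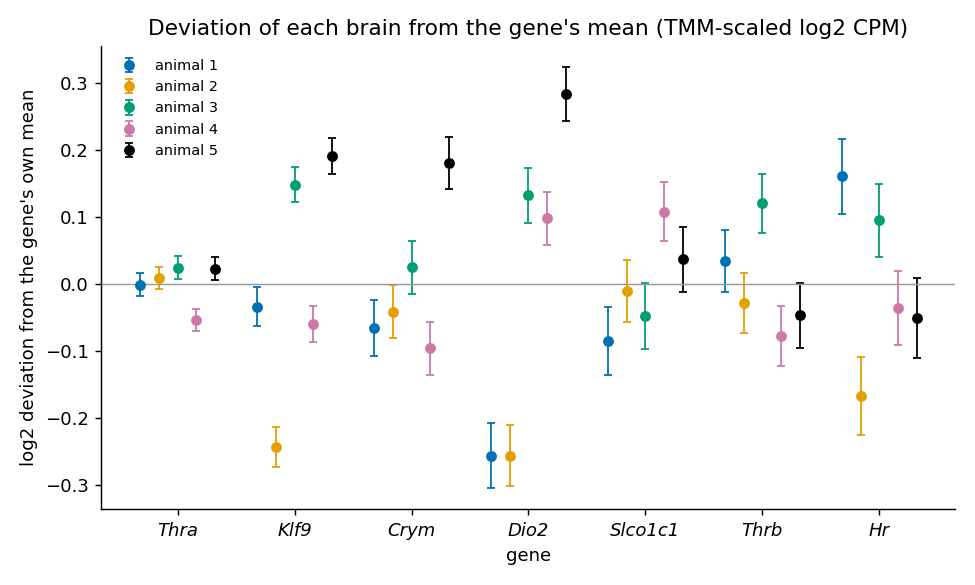
Deviation of each brain from the gene's own mean on TMM-scaled log2 CPM; points are animals and bars are the counting error of that library, 1 SD. Dio2 runs from -0.26 in animals 1 and 2 to 0.28 in animal 5, whereas all points of Thra lie between -0.055 and 0.024.

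The windows before the RefSeq starts of Dio2 and Klf9, the pair of members that differed most between the brains, are shown for their motifs. RefSeq windows (GRCm38.p6) were held for 4 of the 7 genes, and each shown is the 250 bases before the start, read 5′ to 3′ on the strand of the gene. Capitals mark matches on either strand to TGACGTCA, the cAMP response element, AGGTCA, the hexamer that nuclear receptors bind, AGGTCA repeated in the same direction with 4 bases between, GNACA and TGTNC with 3 bases between, the glucocorticoid response element, CACGTG, the E-box, and TATAAA, the TATA box. The direct repeat contains the hexamer. The first window is chr12:90739039-90739288 on the minus strand and the second chr19:23140976-23141225 on the plus strand.
Dio2: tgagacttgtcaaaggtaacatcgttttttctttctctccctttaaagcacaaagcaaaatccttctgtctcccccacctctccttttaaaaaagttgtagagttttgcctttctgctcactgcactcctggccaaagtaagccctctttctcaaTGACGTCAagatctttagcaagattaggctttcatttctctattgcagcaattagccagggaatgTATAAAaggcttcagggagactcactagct
Klf9: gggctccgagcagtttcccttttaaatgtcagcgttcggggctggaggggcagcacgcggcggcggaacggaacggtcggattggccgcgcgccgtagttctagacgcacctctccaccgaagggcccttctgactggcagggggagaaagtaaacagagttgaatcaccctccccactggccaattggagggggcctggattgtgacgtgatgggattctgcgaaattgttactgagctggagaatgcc

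The Dio2 window holds TGACGTCA at -95 to -88 and TATAAA at -30 to -25, counted back from the RefSeq start at 90739038. That start lies upstream of the 5′ end of the gene position given above, 90738438, so the window does not adjoin it. Of 32851 RefSeq windows of the same length, 1.55% hold TGACGTCA and 12.4% TATAAA. The Klf9 window holds none of the 6 motifs, and its GC content is 59.6%, against 41.6% for Dio2 and a median of 52.4% over all windows. AGGTCA is found in 14.0% of all windows, its direct repeat in 0.0152%, the glucocorticoid response element in 0.387% and CACGTG in 6.02%. These are matches of letters in a short window and say nothing of binding in these brains.

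The brains high in both Dio2 and Klf9, animals 3 and 5, were also high in a list of glucocorticoid-induced genes, which respond to the adrenal stress hormones. All 10 genes of that list were detected in every library, none was at 0, and 5 were called more variable, Sgk1, Tsc22d3, Ddit4, Per1 and Nfkbia, against 0.305% of all genes tested. The list was chosen with the variability of these data known, so neither that count nor the likeness of the list to Dio2 and Klf9 is an independent result. Their summed level was 115, 122, 201, 139 and 211 RPKM in animals 1 to 5, and the mean log2 deviation of the list was -0.32, -0.31, 0.34, -0.11 and 0.40. Klf9, known to be induced by glucocorticoids as well, had log2 deviations of -0.034, -0.24, 0.15, -0.060 and 0.19, and Dio2 of -0.26, -0.26, 0.13, 0.098 and 0.28. Animals 3 and 5 were the 2 highest in all 3 sets of values, whereas animal 4 was above its mean in Dio2 alone. The part of this list in the differences of Dio2 and Klf9 was not tested. Hypothalamic neuropeptide genes, 5 of 5 detected in every library, had mean log2 deviations of 0.16, 0.24, -0.052, 0.18 and -0.53. Their summed level was 37.2 to 75.9 RPKM. Avp and Oxt were called more variable, against 0.305% of all genes tested, and this list too was chosen with earlier results known. The mean ran the other way in animal 5, where Oxt stood at -1.47 and Avp at -0.73. Pmch and Hcrt stood at -0.30 each there, but Agrp was above its own mean (0.17). The part of these genes was not tested either.

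Marker lists of the cells known to express Dio2 and Slco1c1 are given as means of genes that did not all move one way, so they cannot be set against the spread of a single gene. The 6 astrocyte markers, detected in every library, had mean log2 deviations of -0.041, -0.038, -0.0076, 0.090 and -0.0039 and a summed level of 760 to 822 RPKM, with animal 4, not animal 5, highest. Among them Aqp4 ran from -0.16 in animal 1 to 0.22 in animal 4. The mean of the 6 endothelial markers lay between -0.027 and 0.024, with a summed level of 98.8 to 104 RPKM, but its genes differed in direction. Slc2a1, the glucose transporter gene of the blood-brain barrier, was called more variable (edgeR, adjusted p = 0.0237), with log2 deviations of -0.21, -0.24, 0.25, -0.083 and 0.28. It was low in animals 1 and 2 and high in animals 3 and 5, as Dio2 was, and its part in the values of Dio2 was not tested. Cldn5, a tight junction gene, had 0.26, 0.067, -0.11, 0.14 and -0.36, with its lowest value in animal 5. The mean of the 5 choroid plexus markers lay between -0.098 and 0.088, with 14.5 to 15.99 RPKM in sum, while Kcnj13 alone ran from -0.24 to 0.38. The list of tanycyte and ependymal genes, which holds Crym itself, had its highest mean in animal 2 (0.15) and its lowest in animal 3 (-0.091). Of its 5 genes, 4 were detected in every library. The summed level was 38.1 to 42.7 RPKM, with 25.5 to 30.9 from Crym. In animal 2 Ccdc153 and Col25a1 stood above their own means (0.53 and 0.14), and Crym and Foxj1 below (-0.042 and -0.041). Rax had 6 counts over the 5 libraries and was not tested. Long nuclear RNAs were listed as a possible sign of library quality, which was not measured here. They had their highest mean in animal 2 (0.17, 5 of 5 genes detected, 277 to 347 RPKM in sum), the animal lowest in Klf9 and Hr. Meg3, Miat and Snhg11 were highest there. Malat1 was highest in animal 5 (0.17, against 0.14 in animal 2) and Neat1 in animal 1 (0.11, against 0.088). The part of these RNAs in the values of Klf9 and Hr was not tested. The clock list, 14 genes of which all were detected and which shares Per1 with the glucocorticoid list, had means between -0.062 and 0.065, with 255 to 278 RPKM in sum.

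**Figure D5:**
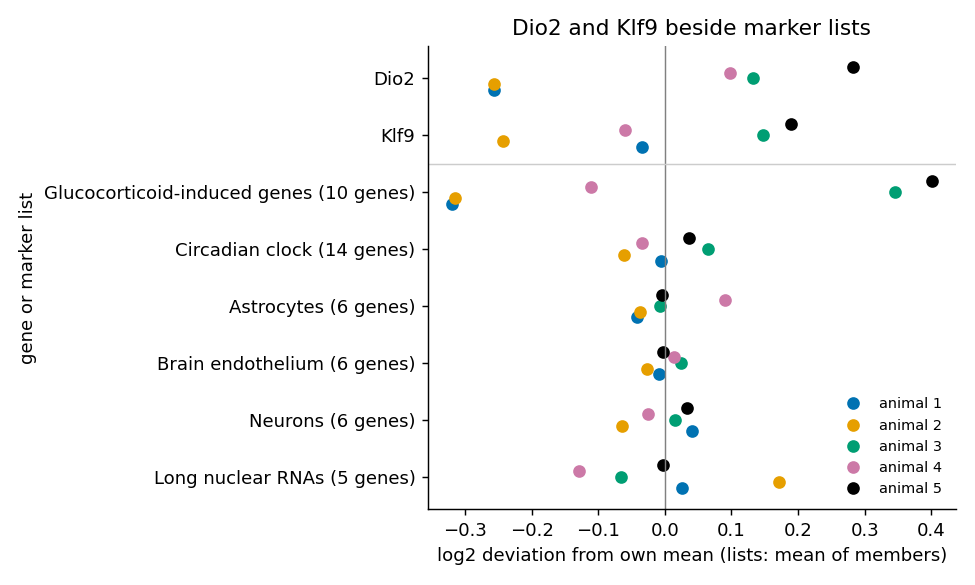
Log2 deviation of Dio2 and Klf9 in each brain, above the line, and the mean deviation of the members of 6 marker lists, below it; points are animals. Animals 3 and 5 lie to the right for Dio2, Klf9 and the glucocorticoid-induced list, and the means of the astrocyte and endothelial lists, whose single genes vary more, lie between -0.041 and 0.090.

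Other genes of hormone transport were measured with none called of 7 tested, out of 8 listed. The amino acid transporter genes Slc7a5 and Slc7a8, whose products also carry thyroid hormones, stood at 21.5 ± 2.18 and 20.7 ± 1.07 RPKM, above Slco1c1. Slc7a5 had 19.1, 19.4, 23.1, 22.0 and 24.0 RPKM in animals 1 to 5, low in animals 1 and 2 and highest in animal 5, as Dio2 was, but it was not called (edgeR, unadjusted p = 0.0131, adjusted p = 0.621). The median range of the list was 1.19-fold, equal at this precision to that of all genes tested.

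Among genes of deiodination and carriage, none of 6 tested of 7 listed was called. Ttr, the thyroxine carrier made by the choroid plexus, had the highest level of any listed gene of hormone carriage at 480.4 ± 18.5 RPKM. Wsb1, part of the ubiquitin ligase that marks the Dio2 protein for degradation, stood at 22.7 ± 2.26 RPKM and was highest in animal 2 at 26.1 (edgeR, unadjusted p = 0.0243, adjusted p = 0.772). Usp33, which removes that mark, had 9.70 ± 0.380 RPKM.

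Receptor partners and coregulators had the lowest median range of the 5 pathway lists, 1.10-fold over 15 genes, all tested, a median log2 ratio to the trend of -0.57 and none called. Ncoa1, a coactivator, stood highest at 27.1 ± 0.612 RPKM, and Hdac3, a histone deacetylase of the corepressor complex, had 22.6 ± 1.09 RPKM. The retinoid X receptor genes Rxra, Rxrb and Rxrg summed to 35.3 ± 1.55 RPKM, against 123 ± 2.92 for Thra and Thrb together.

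Brain genes known to be induced by thyroid hormone in rodents had none called of 11 tested, out of 12 listed. At an unadjusted p under 0.05, 5 of the 11 were more variable, Nrgn, Mbp, Rasd2, Aldh1a1 and Sema7a, against 5.43% of all genes tested. The list was chosen with earlier results of these data known, so that count is not an independent result. The 5 genes did not share the pattern of Dio2. Nrgn (561 ± 60.2 RPKM, a synaptic protein that binds calmodulin) and Rasd2 (60.7 ± 6.76, a small GTPase of the striatum) were highest in animal 1, whereas Mbp (288 ± 29.7, a myelin protein) was highest in animal 4. Nrgn, Rasd2 and Sema7a did share the extremes of Hr. Their top log2 deviations fell in animal 1 (0.20, 0.26 and 0.20, with 0.16 for Hr). Their bottom values fell in animal 2 (-0.22, -0.19 and -0.28, with -0.17 for Hr), where Klf9 was lowest too. Mbp and Aldh1a1 peaked in animal 4 instead, with their bottom values in animal 5. The reason for this likeness to Hr was not tested. The striatal marker list had the same extremes as Hr, with mean log2 deviations of 0.26 in animal 1 and -0.13 in animal 2 (6 of 6 genes detected, 190 to 246 RPKM in sum). So did the means of the neuron (0.041 and -0.064), upper cortical layer (0.044 and -0.047) and deep cortical layer lists (0.068 and -0.080), all genes detected. In summed RPKM the neuron and upper layer lists were instead highest in animal 5. Single genes differed, as Calb1 of the upper layers was lowest in animal 1 (-0.099). In animal 4 the oligodendrocyte list, which holds Mbp itself, was at its highest (0.20, 5 of 5 detected, 748 to 927 RPKM). Some cerebellar markers stood apart in animal 4 too. Gabra6 had 1.65 RPKM there and at most 0.030 in the others, and Cbln3 0.99 and at most 0.14. Pcp2, the hormone-induced gene left out of the test, had 25 counts there and 2 to 4 in the others. Cbln1 was also highest in animal 4, but Calb2 of the same marker list in animal 2. The part of these cells, or of the tissue sampled, in the values was not tested.

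The genes whose deviations over the 5 animals lay closest to those of each member were found by the root mean square difference of log2 deviations. With 14770 genes and 5 animals close matches are always found, so they are a description only. For Dio2, with a root mean square deviation of 0.22 of its own, they were Bhlhe40 (difference 0.038) and Galnt15 (0.040). For Klf9 (0.16) they were Frmd6 (0.0080) and Aass (0.016), and for Crym (0.098) Slc39a10 (0.017) and Ppm1e (0.018). For Hr (0.12) they were Sumf1 (0.022) and Rell1 (0.027), for Thrb (0.070) Ccdc157 (0.011) and Drg2 (0.014), for Slco1c1 (0.067) Glrx2 (0.012) and Pde11a (0.012), and for Thra (0.029) Pclo (0.0055) and Ube3c (0.0088).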

How the data were processed

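The authors deposited raw counts for each Ensembl gene as whole numbers. The tools named, per the submitters' processing notes, are STAR 2.4.1d, featureCounts 1.4.6-p4 and CASAVA 1.7, with the build GRCm38. Annotation release, strand setting and treatment of multiply matching reads: not given in the sources used here. In the deposited RPKM table, made by the authors, 80% of values had been scaled by the wrong library's total, since totals taken in turn recovered 100% of 117232 entries (tolerance 0.0011 RPKM plus a relative 0.0002). RPKM was therefore recomputed with own totals and the recovered gene length. Symbols and positions came from GENCODE for 47310 genes. Of the words of 50 bases in the members' transcripts, at most 0.15% occur in other genes.

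Variability was tested on the counts in R 4.3.3 with edgeR 4.0.16 (low-count filter filterByExpr, TMM, robust quasi-likelihood with an intercept, 4 residual and 15.3 prior degrees of freedom), and the ratio of quasi-dispersion to trend was compared with an F distribution in each tail. Alternatives used limma 3.58.1 and DESeq2 1.42.0. Log2 CPM has a prior count of 2. The test was tested on simulated data. Named were the members, the 3 most abundant and any called genes of each list, the genes of the pairs and 2 nearest genes per member. Nr1d1, Gm26512, Sema7a, Aldh1a1, the Rxr genes, Trhr, Tshb, Cga, Tg and the single marker genes fall outside this rule and were chosen with their values in view. Some genes of the lists are counted but not reported here. The members and lists were chosen with earlier results of these data known. Counting errors and floors cover counting only, because reads carried no molecular identifiers.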

Additional observations from a re-analysis of the deposited data

Results flagged for a closer look

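Of 43 values tested over the 5 animals, 3 had an animal whose gap to the nearest other was over 0.71 of the whole range, which chance gives in about 1 of 20. Animal 4 stood apart low in Slc7a8 (18.8 RPKM against 20.8 to 21.5 in the other 4, gap 0.766 of the range). Animal 5 stood apart high in the log2 ratio of Crym over Thrb (1.57 against 1.24 to 1.33, gap 0.733). Animal 3 stood apart high in the log2 ratio of Dio2 over Dio1 (7.23 against 6.80 to 6.92, gap 0.720), a value set by the 0.1 RPKM added, since Dio1 had at most 1 count in a library.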

How the results depend on the processing

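The number of genes called more variable was 45. It was 101 as DESeq2 dispersion outliers, 249 with no low-count filter, 27 with limma on deposited RPKM, 19 with a non-robust prior, 10 with limma on recomputed RPKM and 18 to 44 without 1 animal (18 without animal 5, 26 without animal 3). The number called less variable was 25 with no low-count filter and 0 in the other settings that test this tail. Dio2 kept its call in 4 of 11 alternatives. Its log2 ratio to the trend stayed positive, at 3.59 with a non-robust prior, 3.37 with limma on recomputed RPKM, 1.56 with limma on deposited RPKM and 3.29 to 3.97 without 1 animal. Klf9 passed with no low-count filter (2.90, edgeR adjusted p = 0.00130) and as a DESeq2 outlier (2.71), in 2 of 11 alternatives, and stood at 0.37 with limma on deposited RPKM. The log2 ratio changed sign, with no call, for Thrb (-0.24 and -0.082 with limma on recomputed and deposited RPKM, -0.52 with DESeq2, -1.49 to 0.69 without 1 animal, lowest without animal 3), Slco1c1 (-0.87 with DESeq2, -0.97 to 0.47 without 1 animal, below 0 without animal 1 or 4), Hr (-0.58 with limma on deposited RPKM) and Crym (-0.12 with limma on deposited RPKM, -0.68 to 1.73 without 1 animal, lowest without animal 5). Of 252 alternative values of the pairs, 251 kept the direction of the mean, and Slco1c1 over Thrb turned to -0.14 without a length adjustment. Many of these could not turn. The minimum of 0.5 RPKM changed no value given, and leaving out 1 animal cannot turn a pair with 1 order in all animals. Dio2 over Thrb lost its fixed order without a length adjustment (0.18, exact sign-flip p = 0.250) and on deposited RPKM (0.35, p = 0.125). Dio2 over Slco1c1 had 1 order in all animals without that adjustment (0.32). Dio2 over Dio1 could not be given under a minimum of 0.5 RPKM. Of 56 alternative levels, 54 moved by less than 1 SD, and Thrb and Klf9 moved to 9.50 and 39.8 RPKM with the union of exons. Settings on deposited RPKM use the values of which 80% had been scaled by the wrong library's total. The cause of the changes listed here was not tested. No paired comparison of conditions was possible because the labels hold 1 group, and pairing was only of genes within an animal. Depth limits Dio3, with 31 to 50 counts in a library, and Dio1, with at most 1.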

Other observations

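Genes of the axis that controls thyroid hormone release were partly present in these hemispheres. Of 10 listed, 7 were detected in every library, 5 were tested and none was called. Trh, the hypothalamic releasing hormone gene, stood at 6.19 ± 0.915 RPKM, and its receptor genes Trhr and Trhr2 at 1.86 ± 0.384 and 2.71 ± 0.367. Tshb, the thyrotropin subunit gene of the pituitary, had 20 to 30 counts in a library, while Cga, which encodes the subunit it pairs with, had 0 in all 5, where 3 counts would have been 0.202 to 0.239 RPKM.

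Slc5a5, the gene of the sodium-iodide symporter of the thyroid, had 3.90, 3.88, 3.99, 3.99 and 4.14 RPKM in animals 1 to 5, from 153 to 182 counts. The values lay within 1.08-fold of each other on TMM-scaled CPM, while Tg had 0 to 4 counts in the same libraries.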
